A study of Rattus norvegicus with 9 samples.

Results

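Genes whose products are read in urine or blood as signs of kidney damage were measured in 9 rat kidneys. There are 7 of them: Havcr1, Lcn2, Clu, Spp1, Cst3, B2m and Tff3. They were taken by gene symbol, through every probe set that the platform annotation pairs with exactly 1 gene. All 7 members were found, on 9 probe sets, among 14217 genes with such a probe set. All 7 were also among the 10337 genes whose mean over the 9 arrays reached a log2 value of 5, the intensity minimum for testing. Havcr1 reached it only through the kidneys of the higher dose, since its mean was 4.83 in vehicle and 4.15 in the lower dose.

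These genes reach urine by different routes, which is why they are used together. Havcr1 (kidney injury molecule), Lcn2 (the siderophore-binding lipocalin NGAL), Clu (clusterin, a secreted chaperone) and Spp1 (osteopontin, a secreted integrin ligand) are known for being switched on in damaged tubules, and their protein is shed or secreted into the tubule lumen. Cst3 (cystatin C, an inhibitor of cysteine proteases) and B2m (the light chain of MHC class I) are made by most nucleated cells, pass the glomerular filter and are taken up by the proximal tubule, so their urine levels follow filtration and uptake and need not follow kidney RNA. Tff3 is a small secreted trefoil peptide of epithelia that is abundant in the rat kidney, and its urine level is known as one that can go down with tubular damage.

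The rats were Sprague-Dawley, bought at 8 weeks of age and acclimated for 1 week, and received intraperitoneal injections each day for 7 days. Vehicle rats (3) received no drug (the diluent was 0.9% saline), CMS25 rats (3) received colistin methanesulfonate sodium at 25 mg/kg and CMS50 rats (3) received it at 50 mg/kg. This compound (CMS) is the prodrug of colistin, a polymyxin antibiotic known to harm kidney tubules. The labels record no lesion in vehicle kidneys, basophilic and dilated tubules in CMS25, and necrosis, degenerated tubules and casts in CMS50, and the design text says that the rats of each dose were picked at random. Sex was not given in the sources used here. RNA came from the entire right kidney and was read on 1 Affymetrix array a rat, so a smaller number of cells of a type and less RNA per cell cannot be told apart. All values are log2 intensities, and a difference of 1 on this scale is 2-fold. Each difference is given with its standard error (SE) and a p-value from limma, a linear model fitted to all genes tested, after Benjamini-Hochberg adjustment. A difference was called where that adjusted p was under 0.05.

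The mean log2 level of 5 proximal tubule markers lay between 11.5 and 12.0 in every array, though in CMS50 against vehicle 1 of them rose (Cubn, 0.90) and 1 fell (Slc22a6, an organic anion transporter, -1.25). Of 4 podocyte markers 2 fell, Wt1 (-1.36) and Nphs1 (-1.05), and 0 rose, where 11.4% of all genes fell. Of 15 macrophage markers on the array, 12 were tested and all 12 rose in CMS50, where 19.6% of all genes rose. Mrc1 and Gpnmb among them reached the intensity minimum only through CMS50, and the other 10 rose too. The mean of the 12 per array, given below as the macrophage level, includes Mrc1 and Gpnmb. It ran from 5.98 to 6.15 in vehicle, from 5.75 to 6.18 in CMS25 and from 7.22 to 8.18 in CMS50. Over all 15 markers, with no intensity minimum, the range was 5.43 to 5.56, 5.28 to 5.62 and 6.48 to 7.29. Of 11 listed neutrophil markers 7 were on the array. All 7 had group means under 5 in every dose group, with array means of the 7 from 3.38 to 3.69. The log2 gap between the 3′ and 5′ control probe sets of beta-actin, a reading of RNA quality, ran from 2.80 to 3.08 in vehicle, from 3.05 to 3.28 in CMS25 and from 3.48 to 3.63 in CMS50. That of GAPDH ran from 0.509 to 0.559, from 0.495 to 0.913 and from 0.766 to 0.886, so CMS25 and CMS50 overlapped. The macrophage level, the podocyte markers and the beta-actin reading moved with every CMS50 result given here, and their part in those results was not tested.

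The sequence before a gene's start is where factors bind that switch it on, and 4 such stretches are shown: those of Havcr1 and Lcn2, which rose most in CMS50, of Tff3, which fell, and of B2m, which was not called. They come from the RefSeq promoter table (GRCr8), which held 6 of the 7 members, all but Clu, with 1 start a gene. Windows of 250 bases before that start were searched on both strands for a STAT palindrome (TTCNNNGAA), an AP-1 site (TGANTCA), a C/EBP site (TTGCNNAA) and the NF-kB consensus. Matches are in capitals, and each run reads 5′ to 3′ along the gene. The Havcr1 window, chr10:31629528-31629777 on the plus strand, lies inside the annotated span of the gene, since another start lies further upstream. For Lcn2 (chr3:36081852-36082030, minus strand) and B2m (chr3:129549080-129549235, plus strand) only the part of the window outside the annotated gene is shown. For Tff3 (chr20:9199334-9199583, minus strand) the whole window lies outside it.
Havcr1: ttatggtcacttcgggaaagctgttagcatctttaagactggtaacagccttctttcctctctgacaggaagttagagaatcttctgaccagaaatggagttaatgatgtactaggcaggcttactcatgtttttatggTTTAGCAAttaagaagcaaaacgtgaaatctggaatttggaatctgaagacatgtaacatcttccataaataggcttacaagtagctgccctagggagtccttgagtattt
Lcn2: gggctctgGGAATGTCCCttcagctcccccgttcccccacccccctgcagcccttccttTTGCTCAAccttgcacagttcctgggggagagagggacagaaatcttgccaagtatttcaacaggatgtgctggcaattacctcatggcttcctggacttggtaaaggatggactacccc
B2m: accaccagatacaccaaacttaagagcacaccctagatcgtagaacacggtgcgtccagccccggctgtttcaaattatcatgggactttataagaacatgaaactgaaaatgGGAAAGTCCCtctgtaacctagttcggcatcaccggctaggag
Tff3: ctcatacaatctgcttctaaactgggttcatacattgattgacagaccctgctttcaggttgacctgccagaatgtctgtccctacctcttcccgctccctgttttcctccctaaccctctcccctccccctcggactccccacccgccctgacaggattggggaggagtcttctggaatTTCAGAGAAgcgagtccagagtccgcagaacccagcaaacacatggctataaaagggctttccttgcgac
Of the 6 members, Lcn2 was the only one with matches to more than 1 of the 4 motifs. Its NF-kB consensus match, GGAATGTCCC, begins 242 bases before the start and its C/EBP match, TTGCTCAA, 191 bases before. Havcr1 held a C/EBP match 111 bases before its start and Cst3, which is not printed, one 145 bases before. B2m held an NF-kB consensus match 137 bases before its start, Tff3 a STAT palindrome 70 bases before, and Spp1 none of the 4 in this window. The whole Spp1 window lies inside the annotated span of its gene, as for Havcr1, and so does the Cst3 match. Among 33469 promoter windows of the same length, 9.22% held the C/EBP site, 7.67% the STAT palindrome, 6.34% the AP-1 site and 6.33% the NF-kB consensus. The matches describe letters only.

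In CMS50 against vehicle, 4 of the 7 members rose, 1 fell and 2 were not called. Of all genes tested, 31.1% were called in either direction, 19.6% higher and 11.4% lower. Havcr1, 1 of the 4, reached the intensity minimum only through CMS50. With no intensity minimum, 5 members were called, beside 22.8% of all genes. The members were proposed with earlier results of these data known, so their count is a description. The median difference was 3.65 over the 7 members and 0.05 over all genes. The share of all genes called changed when an array was left out, which also makes its group smaller. It was 20.8%, 17.9% and 20.7% without vehicle replicates 1, 2 and 3. Without CMS50 replicates 1, 2 and 3 it was 16.2%, 15.8% and 34.1%. The same 4 rises and 1 fall were called in all of these. The arrays of CMS50 and vehicle did not overlap for 5 of the 7 members, as for 49.6% of all genes. Group means ± SD (n = 3) for vehicle and CMS50 were 4.83 ± 0.81 and 11.15 ± 0.84 for Havcr1, 5.22 ± 0.79 and 9.83 ± 0.71 for Lcn2, 8.92 ± 0.59 and 12.58 ± 0.84 for Clu, and 10.70 ± 1.03 and 14.35 ± 0.15 for Spp1. For Tff3 they were 13.83 ± 0.24 and 11.56 ± 1.03.

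**Figure D1:**
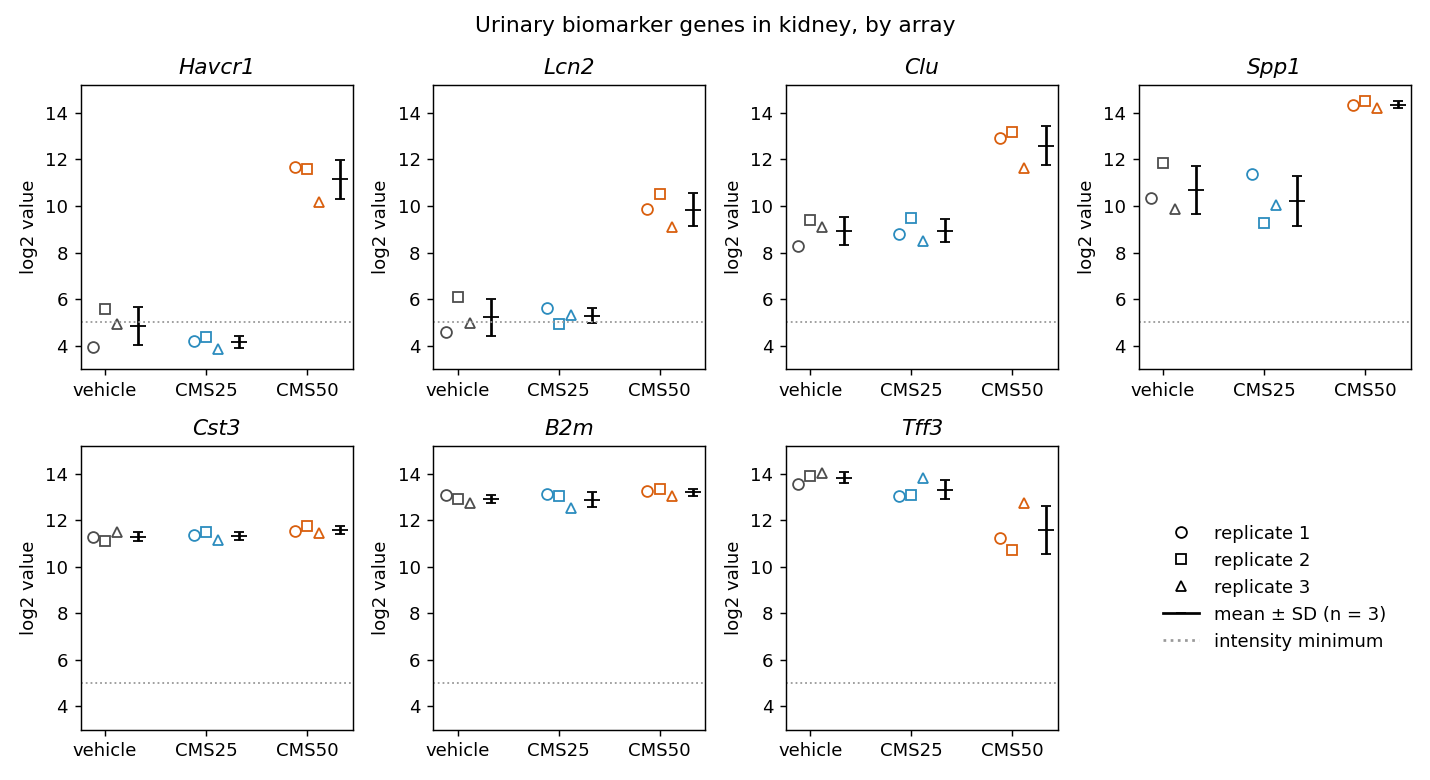
Log2 value of each of the 7 genes (y axis) in the 9 arrays, by dose group (x axis, vehicle, CMS25 and CMS50), with replicate numbers as symbols, group mean ± SD (n = 3) as a bar, and the intensity minimum of 5 as a dotted line. Havcr1, Lcn2, Clu and Spp1 were higher in all 3 CMS50 arrays than in any other array, Tff3 was lower in all 3, and Cst3 and B2m overlapped between groups.

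Havcr1 encodes a phosphatidylserine receptor that is nearly silent in the healthy proximal tubule. Its log2 values (probe set 1387965_at) were 3.96, 5.58 and 4.95 in vehicle replicates 1 to 3, 4.20, 4.38 and 3.87 in CMS25, and 11.66, 11.60 and 10.18 in CMS50. The CMS50 arrays stood 4.60 above the highest vehicle array and 5.80 above the highest CMS25 array. CMS50 exceeded vehicle by 6.32 (SE 0.46, adjusted p = 0.000389), a 79.8-fold difference. The vehicle signal is dim, and with the vehicle mean set to the intensity minimum the fold was 70.9, an alternative added after the data were seen. Against CMS25 the difference was 7.00 (SE 0.46, adjusted p = 0.000261), and 6.15 with the CMS25 mean set to that minimum. In single kidneys of CMS50, Havcr1 stood 114-fold, 109-fold and 40.7-fold above the vehicle mean in replicates 1, 2 and 3.

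Lcn2 encodes an iron-siderophore carrier that injured distal tubules and neutrophils release. Its values (probe set 1387011_at) were 4.57, 6.10 and 4.98 in vehicle, 5.60, 4.95 and 5.30 in CMS25, and 9.88, 10.51 and 9.10 in CMS50. No CMS50 array came within 3.00 of the highest vehicle array, which was replicate 2. The difference from vehicle was 4.62 (SE 0.43, adjusted p = 0.000713), or 24.5-fold, and that from CMS25 was 4.55 (SE 0.43, adjusted p = 0.000912). The neutrophil markers given above had group means under the intensity minimum in every dose group. Which cells gave the rise of Lcn2 was not tested.

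Clu encodes an extracellular chaperone that binds misfolded proteins and lipids. Its brighter probe set (1367784_a_at) read 8.26, 9.39 and 9.11 in vehicle, 8.82, 9.48 and 8.51 in CMS25, and 12.94, 13.19 and 11.63 in CMS50. CMS50 was therefore above all other arrays, with replicate 3 the lowest of its group. The difference from vehicle was 3.66 (SE 0.44, adjusted p = 0.00181), or 12.7-fold, and from CMS25 it was 3.65 (SE 0.44, adjusted p = 0.00187). A further Clu probe set (1388246_at) was dim in every array, at 3.71 to 3.81 in vehicle, 3.68 to 3.93 in CMS25 and 4.11 to 4.32 in CMS50. It rose too, by 0.47 (SE 0.10, adjusted p = 0.0132 in the fit of all probe sets), where 18.9% of 20826 probe sets were called. With the mean of the 2 probe sets as the gene's value, Clu differed by 2.07 from vehicle and by 2.06 from CMS25, both still called.

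Spp1 encodes osteopontin, a phosphorylated matrix protein that binds integrins and CD44. Of the 7 members it had the largest SD in vehicle (1.03) and in CMS25 (1.08): probe set 1367581_a_at read 10.36, 11.86 and 9.89 in vehicle and 11.38, 9.25 and 10.06 in CMS25. The highest vehicle array was 3.91-fold above the lowest, and the highest CMS25 array 4.38-fold. In CMS50 the values were 14.35, 14.49 and 14.20, a range of 1.23-fold. Spp1 was above all other arrays in the 3 CMS50 kidneys, and close to 14.8, the highest value of any probe set in the table. The narrow range there is one of readings near the top of the scale, and likeness of the 3 kidneys was not tested. The difference from vehicle was 3.65 (SE 0.57, adjusted p = 0.00333), or 12.5-fold, and from CMS25 it was 4.12 (SE 0.57, adjusted p = 0.00249).

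Tff3 encodes a cysteine-rich peptide that protects mucosal and tubular epithelia. Its values (probe set 1387218_at) were 13.56, 13.91 and 14.02 in vehicle, 13.04, 13.10 and 13.81 in CMS25, and 11.24, 10.73 and 12.72 in CMS50. All CMS50 arrays were below all others, but replicate 3 lay only 0.32 below the lowest CMS25 array. Tff3 fell by 2.27 against vehicle (SE 0.44, adjusted p = 0.00671), to a level 4.81-fold lower. Its vehicle values were high on a scale whose highest reading was 14.8, and whether this narrows the fall was not tested. Against CMS25 the difference was -1.75 (SE 0.44, adjusted p = 0.0179). That call was lost when CMS25 replicate 3 was left out (-1.51, adjusted p = 0.0615), and likewise CMS50 replicate 1 (-1.59, adjusted p = 0.0663) or CMS50 replicate 2 (-1.34, adjusted p = 0.0603). Markers of the thick ascending limb moved with Tff3: 3 of 3 fell in CMS50 against vehicle, where 11.4% of all genes fell. Their mean level ran from 11.7 to 11.9 in vehicle and from 11.6 to 11.8 in CMS25, and was 10.6, 9.96 and 11.3 in CMS50 replicates 1 to 3. Of 4 collecting duct markers 1 fell and 0 rose, and the part of either cell type in the fall of Tff3 was not tested.

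The genes of the filtered proteins, Cst3 and B2m, were not called in any comparison. Cst3 (probe set 1370855_at) read 11.27, 11.11 and 11.48 in vehicle, 11.34, 11.50 and 11.16 in CMS25, and 11.53, 11.75 and 11.44 in CMS50. The CMS50 arrays overlapped with both other groups. The difference from vehicle was 0.28 (SE 0.13, adjusted p = 0.134), with a 95% interval of -0.02 to 0.58. Against CMS25 it was 0.23 (95% interval -0.07 to 0.53, adjusted p = 0.205).

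B2m has 2 probe sets, of which 1367595_s_at, whose suffix marks probes that can match more than 1 gene, was the brighter. It read 13.08, 12.89 and 12.76 in vehicle, 13.11, 13.03 and 12.51 in CMS25, and 13.27, 13.32 and 13.04 in CMS50. The groups overlapped, with CMS50 replicates 1 and 2 above all other arrays and replicate 3 among them. CMS50 exceeded vehicle by 0.30 (SE 0.16, 95% interval -0.07 to 0.67, adjusted p = 0.196), and the interval ends at 1.59-fold. The difference from CMS25 was 0.32 (SE 0.16, adjusted p = 0.158). The other probe set (1371440_at) differed by 0.22 from vehicle (SE 0.17, adjusted p = 0.421) and by 0.41 from CMS25 (SE 0.17, adjusted p = 0.126), where 18.1% of probe sets were called.

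**Figure D2:**
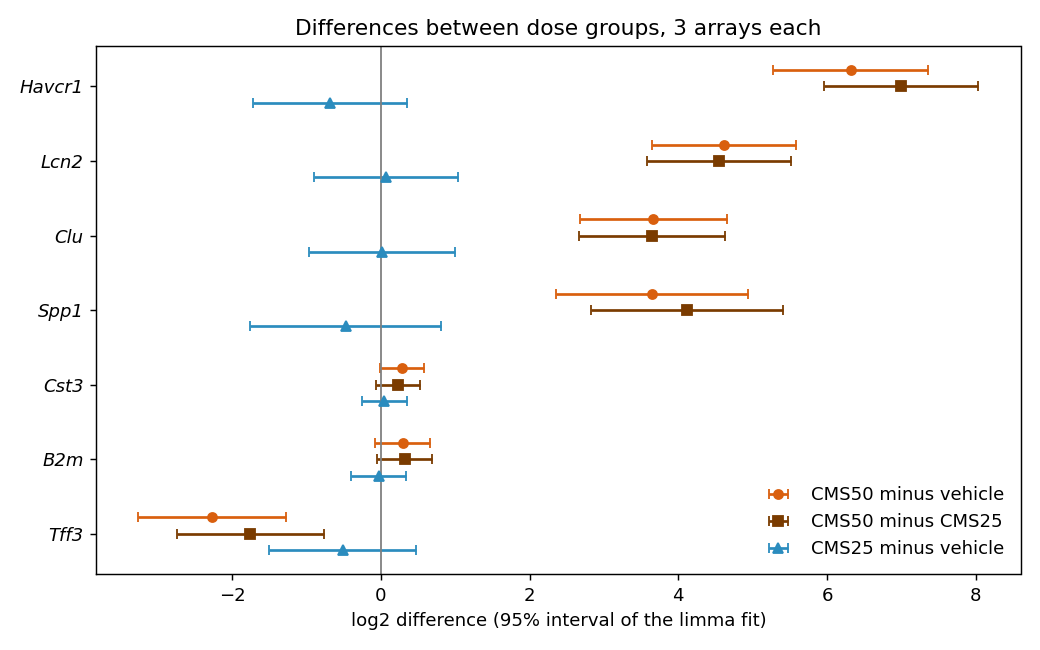
Log2 difference (x axis) with its 95% interval from the limma fit for each of the 7 genes (y axis) in the 3 comparisons of dose groups, 3 arrays each. The intervals of both CMS50 comparisons lie above 0 for Havcr1, Lcn2, Clu and Spp1 and below 0 for Tff3, and all 7 intervals of CMS25 minus vehicle include 0.

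The lower dose, whose kidneys carry the labels of basophilic and dilated tubules, shows these genes where no necrosis was recorded. None of the 7 members was called in CMS25 against vehicle by limma, where 0% of all 10337 genes were called and 5.84% (604 genes) had an unadjusted p under 0.05. None of the 7 unadjusted p-values was under 0.05, and the lowest was 0.173, for Havcr1. The arrays of the 2 groups overlapped for all 7 members, whereas 12.1% of all genes did not overlap. The difference for Havcr1 was -0.68 (SE 0.46, 95% interval -1.72 to 0.36, adjusted p = 0.883). Both group means of Havcr1 were under the intensity minimum, so this interval bounds the difference of dim readings and sets no limit on a fold. For Lcn2 it was 0.07 (95% interval -0.89 to 1.03), up to 2.05-fold, and for Clu 0.01 (-0.97 to 1.00), up to 2.00-fold. These intervals leave room for rises and falls of close to 2-fold in Lcn2 and Clu.

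Spp1 differed by -0.47 between CMS25 and vehicle (95% interval -1.76 to 0.82), the widest interval of the 7. Tff3 differed by -0.51 (95% interval -1.50 to 0.48, adjusted p = 0.911). In Tff3, CMS25 replicates 1 and 2 were below all vehicle arrays and replicate 3 was among them, so the levels ran vehicle, CMS25 and CMS50 from high to low with no test separating the first 2. Cst3 (0.05, 95% interval -0.25 to 0.35) and B2m (-0.03, -0.40 to 0.34) had the narrowest intervals. For the 4 members that rose in CMS50, vehicle and CMS25 likewise had no order beyond their spread.

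In CMS50 against CMS25, which shares its CMS50 arrays with the first comparison, the same 5 members were called, 4 higher and 1 lower, and the arrays of the same 5 did not overlap. Of all genes, 30.3% were called (20.8% higher, 9.43% lower) and 45.7% did not overlap. Havcr1 reached the intensity minimum only through CMS50 here too. The share called was 19.4% with CMS25 replicate 3 left out, 16.5% with CMS50 replicate 1 left out and 14.8% with CMS50 replicate 2 left out. A further contrast asked whether the step from 25 to 50 mg/kg differed from the step from 0 to 25 mg/kg. It was called for 2 members, Havcr1 and Lcn2, and for 0.445% of all genes (0.397% higher). The second step exceeded the first by 7.68 for Havcr1 (SE 0.80, adjusted p = 0.0149) and by 4.48 for Lcn2 (SE 0.74, adjusted p = 0.0460). The vehicle and CMS25 means of Havcr1 were both under the intensity minimum, so part of its 7.68 is a difference of dim readings. With the CMS25 mean set to that minimum, the second step by itself was 6.15.

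The calls of this contrast depended on single arrays, while the differences stayed close in size. The call of Havcr1 was lost without vehicle replicate 2 (7.30, adjusted p = 0.0679), without CMS25 replicate 2 (7.91, adjusted p = 0.0816) and without CMS25 replicate 3 (7.40, adjusted p = 0.0834). That of Lcn2 was lost in 9 of 18 alternatives: cyclic loess scaling and the removal of any single array other than CMS50 replicate 3, with differences from 4.03 to 4.80 and adjusted p-values from 0.0515 to 0.158 in those. Clu (3.63, adjusted p = 0.0594) and Spp1 (4.59, adjusted p = 0.0617) missed the threshold. Without CMS50 replicate 3 the contrast was called for 5 members: Havcr1, Lcn2, Clu (adjusted p = 0.00741), Spp1 (adjusted p = 0.0331) and Tff3 (-1.82, adjusted p = 0.0321).

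In each dose group, a single array was the highest or lowest of its group in several members at once. In CMS25, replicate 3 was the lowest for Havcr1, Clu, Cst3 and B2m (-0.28, -0.43, -0.17 and -0.37 from the group mean). It was the highest for Tff3 (0.49). CMS25 replicate 2 was the highest for Havcr1, Clu and Cst3 (0.23, 0.54 and 0.17) and the lowest for Lcn2 and Spp1 (-0.34 and -0.98). In vehicle, replicate 2 had the highest value of Havcr1, Lcn2, Clu and Spp1, by 0.75, 0.89, 0.47 and 1.16 above the group mean. The same kidney was not the highest in Cst3, B2m or Tff3, its macrophage level of 6.02 lay between those of the other vehicle arrays, and its beta-actin 3′ to 5′ gap of 3.06 did too. In CMS50, replicate 3 was the lowest for 6 of the 7 members and the highest for Tff3, so it was nearest to vehicle for every member. It had the lowest macrophage level of its group, 7.22, and the lowest beta-actin gap, 3.48, but not the lowest GAPDH gap (0.796, against 0.766 in replicate 2).

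The difference of CMS50 replicate 3 from the vehicle mean, over that of CMS50 replicates 1 and 2, was 0.786 for Havcr1, 0.781 for Lcn2, 0.653 for Clu, 0.939 for Spp1 and 0.390 for Tff3, on the log2 scale. These ratios rest on 1 kidney and give no order of the members. Spp1 read near the top of the scale in all 3 CMS50 arrays, and the vehicle mean of Havcr1 was under the intensity minimum.

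**Figure D3:**
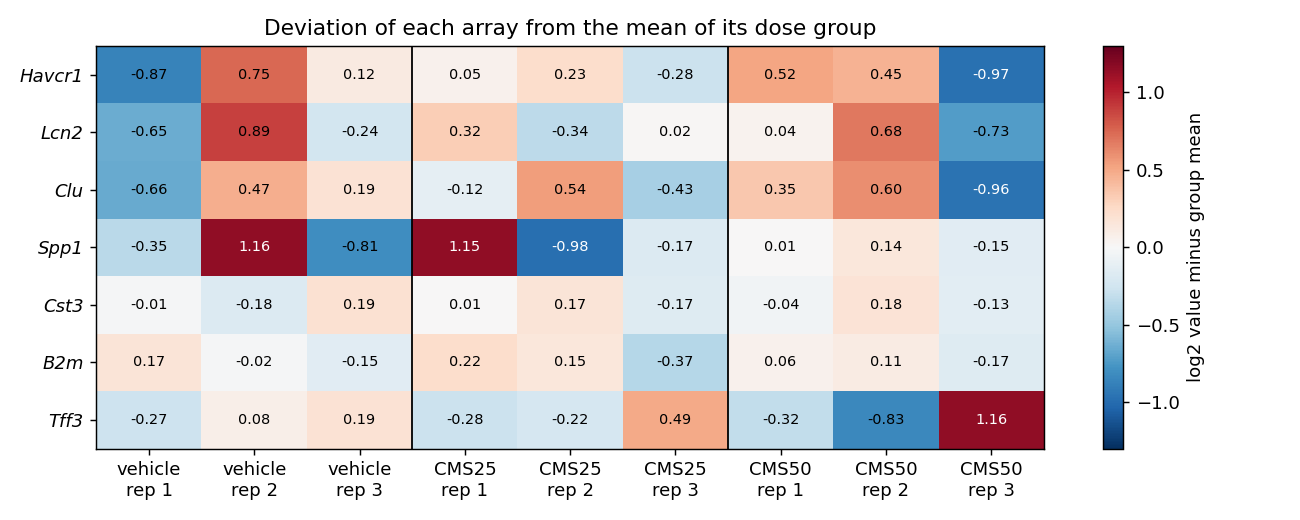
Log2 value of each array minus the mean of its dose group, for the 7 genes (rows) in the 9 arrays (columns, by group and replicate), with the value printed in each cell and colour from blue (below) to red (above). Vehicle replicate 2 is above its group mean for Havcr1, Lcn2, Clu and Spp1, and CMS50 replicate 3 is below its group mean for 6 genes and 1.16 above it for Tff3.

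Over the 9 deviations from group means, Pearson's r was 0.94 for Havcr1 with Clu, 0.81 for Havcr1 with Lcn2 and 0.70 for Lcn2 with Spp1, but 0.33 for Havcr1 with Spp1 and 0.07 for Clu with Spp1. Tff3 ran opposite to Clu (r = -0.68) and to B2m (r = -0.74). These values describe 9 arrays that share each array's scaling. Taken over the 9 arrays themselves, r also holds the differences between dose groups, and 31.1% of all genes were called in CMS50 against vehicle. Shared control was not tested. The 3 genes whose pattern over the 9 arrays was most like each member's were listed by the highest r. For Havcr1 they were Tpd52l2 (r = 0.994), Bcl3 (0.991), a regulator of NF-kB, and Ltbr (0.990), the lymphotoxin receptor. For Lcn2 they were again Tpd52l2 (0.994), then Serpina10 (0.991), a serpin, and Snrpe (0.988), a splicing protein.

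For Clu the nearest patterns were those of S100a11 (0.993), a calcium-binding protein, Atf3 (0.993), a stress transcription factor, and Flot2 (0.991), a membrane scaffold protein. For Spp1 they were Masp2 (0.987), a protease of the lectin complement pathway, Yeats4 (0.979) and Usp11 (0.975). Tff3 was most like Cth (0.994), the enzyme that makes cysteine from cystathionine, Slc22a2 (0.990), the basolateral organic cation transporter, and Slco1a6 (0.989). These 3 had log2 differences of -1.33, -2.59 and -2.16 in CMS50 against vehicle, a direction that their choice by likeness to Tff3 fixes. Cst3 was nearest to Ints9 (0.972), Mbtps2 (0.956) and Slc28a2 (0.953), and B2m to Fam98a (0.970), Rnd3 (0.969) and Osbpl5 (0.956).

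Other genes used as kidney toxicity markers moved in both directions. Of 42 tested, 15 rose and 11 fell in CMS50 against vehicle, with a median of 0.14, beside 19.6% of all genes higher and 11.4% lower. Gpnmb, Ccl2 and Hmox1, all among the 15, were tested only through CMS50, since their vehicle and CMS25 means were under the intensity minimum. Of the other 39, 12 rose and 11 fell. The 4 largest were Gpnmb, a glycoprotein of phagocytes, which rose by 3.49 (SE 0.27, adjusted p = 0.000447), Rbp4, the plasma retinol carrier, which fell by 3.23 (SE 0.68, adjusted p = 0.00919), Timp1, a protease inhibitor, which rose by 3.07 (SE 0.28, adjusted p = 0.000697), and Rgn (regucalcin), which fell by 2.75 (SE 0.61, adjusted p = 0.0108). In CMS25 against vehicle 0 of the 42 were called. Timp2 (0.36, adjusted p = 0.202) and Igfbp7 (0.16, adjusted p = 0.400), the pair read in urine as markers of cell cycle arrest, were not called.

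**Figure D4:**
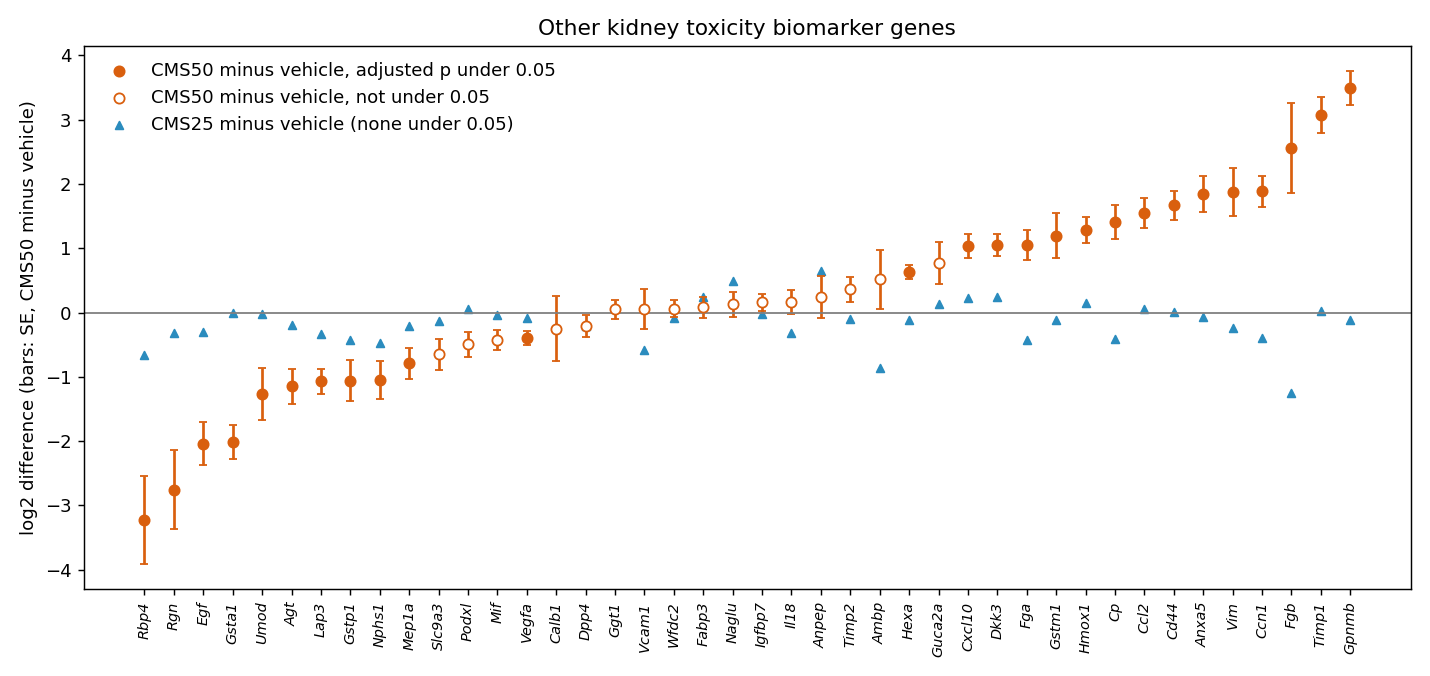
Log2 difference (y axis) for 42 other kidney toxicity biomarker genes (x axis), ordered by CMS50 minus vehicle (circles with SE bars, filled where the adjusted p is under 0.05) with CMS25 minus vehicle as triangles. The filled circles run from -3.23 for Rbp4 to 3.49 for Gpnmb, and none of the CMS25 differences passed the threshold.

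Genes for the uptake of filtered proteins, the route by which Cst3, B2m and Lcn2 protein is recovered from the lumen, moved in both directions. Of 8 tested uptake genes, 3 rose and 2 fell, beside 19.6% and 11.4% of all genes. Cubn (cubilin) rose by 0.90 (SE 0.16), its partner Amn by 0.58 (SE 0.16) and the albumin and IgG receptor Fcgrt, which itself pairs with B2m, by 0.38 (SE 0.08). The lipocalin receptor Slc22a17 fell by 0.35 (SE 0.11), as did the sorting protein Snx3, by 0.29 (SE 0.10). Lrp2 (megalin) differed by 0.07 (adjusted p = 0.567).

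The heavy chains that bind B2m and the genes that load peptide on them rose or were not called. Of 15 class I and peptide loading genes, 8 rose and 0 fell, beside 19.6% of all genes higher. RT1-N2, a class I heavy chain, rose by 1.78 (SE 0.23), the peptide transporter Tap2 by 1.17 (SE 0.24), the class I gene RT1-T24-4 by 1.14 (SE 0.12) and the peptide trimming enzyme Erap1 by 1.04 (SE 0.17). Class I genes are near-identical copies, so which one a probe set reads is uncertain. Whether these rises differ from the change of B2m, which was not called, was not tested.

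Among cystatins and the cathepsins they inhibit, 6 of 8 rose and 0 fell, beside 19.6% and 11.4% of all genes, which are also the shares to set beside the lists that follow. The proteases Ctsz, Ctss, Ctsk and Ctsh rose by 1.25 (SE 0.22), 0.99 (SE 0.21), 0.90 (SE 0.19) and 0.50 (SE 0.14). The osteopontin receptor Cd44 rose by 1.67 (SE 0.23) and the integrin chain Itgb1 by 0.54 (SE 0.11), while Fam20c, the kinase that phosphorylates osteopontin, fell by 0.79 (SE 0.12). The other 5 of 8 osteopontin receptors and related genes were not called. Of 6 clusterin partners, 2 rose, Apoe (1.98, SE 0.38) and Cd2ap (0.69, SE 0.12), and 0 fell. Of 2 further lipocalins Rbp4 fell, as given, and Ptgds did not pass (-0.63, adjusted p = 0.0936). Tff1 (-0.19, adjusted p = 0.302) and Muc1 (-0.48, adjusted p = 0.104), the tested genes of the trefoil and mucin list, were not called, and no probe set was annotated to other members of the Havcr family.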

How the data were processed

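Deposited values are log2 intensities of 31099 probe sets on 9 arrays, made by the authors with RMA in Affymetrix Expression Console per the submitters' processing notes (no versions were given in the sources used here). This method equalises the arrays' distributions and compresses changes of dim probe sets. The platform annotation, which can be old, gave 1 gene symbol to 20826 probe sets, several to 436 and none to 9780, and only the first were used. A gene was read by its probe set with the highest mean. The 10337 genes with a mean of at least 5 were fitted over the 3 groups with limma 3.58.1 in R 4.3.3, as were all probe sets with 1 symbol, and the code was tested on simulated data. Intervals are 95% intervals. Precision is limited by 3 rats a dose: an exact permutation test of 3 against 3 cannot go below 0.1. Replicate numbers were not used as pairs, and the labels do not say what equal numbers share. The text names all members, up to 4 called genes with the largest change of each list and the 3 genes nearest to each member. Slc22a6, Wt1, Nphs1, Mrc1, Ccl2, Hmox1, Snx3, Lrp2, Timp2, Igfbp7, Ptgds, Tff1 and Muc1 were named after their values were seen. The members and lists were chosen with earlier results of these data known. Figures were drawn with matplotlib 3.10.9.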

Additional observations from a re-analysis of the deposited data

How the results depend on the processing

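The 4 rises and 1 fall of CMS50 against vehicle were called in all 19 alternatives, covering other scalings, filters, probe set choices and variance estimates, the replicate block and the removal of single arrays. In CMS25 against vehicle 0 members were called in all 19. Without each array in turn, the share of all genes called ran from 15.8% to 34.1% for CMS50 against vehicle and from 14.8% to 33.9% for CMS50 against CMS25. The equal-step contrast was called for 0 to 5 members when an array was left out and for 1 with cyclic loess, against 2 as reported. The cause was not tested. Other counts of called members stayed within 1.5 times, and no called direction reversed. With the replicate number as a block, the counts of called members were 5, 0 and 5 for CMS50 against vehicle, CMS25 against vehicle and CMS50 against CMS25, 2 for the equal-step contrast and 6 for the probe sets, all as without it, and 27.7% of all genes were called in CMS50 against vehicle. Same-numbered arrays showed little shared deviation from their group means: r ran from -0.183 to 0.263 over 9 pairs, with 3 over 0.1. Over 18 pairs of other numbers it ran from -0.229 to 0.225, with 5 over 0.1. An array correlated best with its own number in 7 of 18 cases. So few arrays cannot exclude a shared cage or day. The dim vehicle signals of Havcr1 and Lcn2 limit their folds, since RMA compresses low values.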
